A study of Mus musculus with 45 samples.

Results

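The first 12 weeks of Western diet (WD) were compared with chow in hepatic stellate cells (HSCs) of mice. The comparison used 8 of the 45 libraries of the series, chosen by their titles: 4 libraries labelled with 12 weeks of WD (A to D) and 4 labelled with 0 weeks (A to D, called chow here). The series followed HSC activation in a diet model (WD, 16 libraries at 0, 12, 16 and 24 weeks), in mice given the hepatotoxic solvent CCl4 and during culture on plastic (in vitro transdifferentiation, IVT). All 8 libraries came from mice labelled C57BL6/J, which per the study's methods were C57BL/6JBomTac males of one age at the end of feeding. WD-fed mice also received fructose in the drinking water, and chow-fed mice had plain water, so the diet and the fructose cannot be told apart. Feeding began at different ages so that all mice ended at one age, and the length of feeding and the age at its start cannot be told apart either. HSCs were enriched on a density gradient and sorted on their retinoid autofluorescence, so cells that had lost their retinoid would not be recovered.

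HSCs lie between the sinusoidal endothelium and the hepatocytes and store vitamin A as retinyl esters in lipid droplets. On injury they lose this store, proliferate and turn into contractile myofibroblasts that deposit collagen, and this transition is the main source of scar in the fibrotic liver. Diet-induced steatohepatitis drives it slowly, whereas CCl4 drives it through repeated death of hepatocytes and culture drives it without any other liver cell.

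The data were exon read counts for 23999 genes. Total counts of the 8 libraries ranged from 2425443 in 12-week library B to 6168113 in chow library B. The counts could not be matched to the listed identifiers. For example, the count listed at B2m, a component of class I molecules on nearly every cell, was between 0 and 1 in the WD libraries. Of 1624 olfactory, vomeronasal, taste, defensin and keratin-associated genes, 37.2% had a mean count below 1, against 36% of all genes. The markers of HSCs and of other liver cells could therefore not be checked in these libraries, and genes are given here as numbered rows of the table, with no function attached. The paper speculates that mRNA of disrupted hepatocytes may have added hepatocyte transcripts to WD libraries, at levels still far below whole liver. It also considers traces of macrophage mRNA likely. Induction within HSCs and transcripts from other cells cannot be told apart here. Fewer cells of a type and less RNA per cell cannot be told apart in such bulk libraries.

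The 12-week library A stood apart from the other 3 libraries of its group. A chi-square per degree of freedom between the counts of 2 libraries was between 35.3 and 70.3 for the pairs with library A, between 5.45 and 12.0 for the other 12-week pairs and between 5.62 and 9.93 for the chow pairs. No pair of libraries agreed within sampling noise, which would give a value near 1. Counts are therefore given below also without library A and, because of its low total, without library B.

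Against chow, 12 weeks of WD induced 2505 genes and repressed 893 (4 libraries per group). Calls required a false discovery rate (FDR) no higher than 0.05 and a mean log2CPM over 2, where CPM is the count scaled to the size of the library. The induced genes made up 20.6% and the repressed genes 7.36% of the 12133 genes over that expression threshold, 28% in all. Over these 12133 genes the median log2FC was -0.01. An unadjusted p below 0.05 was reached by 4812 of them. The count of induced genes was 1963 without 12-week library A, 2294 without B and 1543 without both. The count of repressed genes depended on single libraries: it was 502 without 12-week A, 527 without 12-week B, 118 without both, and 527, 529 and 494 without chow A, B and D.

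The induced genes changed far more than the repressed genes. The median log2FC was 2.13 for induced genes (4.39-fold, median SE 0.38) and -0.61 for repressed genes (1.53-fold, median SE 0.17). Of the induced genes, 1849 (73.8%) changed at least 2-fold, 1300 (51.9%) at least 4-fold and 803 (32.1%) at least 16-fold. Of the repressed genes, 109 (12.2%) changed at least 2-fold, 13 (1.46%) at least 4-fold and 0 at least 16-fold, and 402 changed less than 1.5-fold. The induced genes fell into a group of modest and a group of large changes. Between 0.5 and 1 on the log2 scale there were 558 induced genes, between 2 and 3 only 237, and between 4 and 5 again 338. Of the 1300 genes induced at least 4-fold, 795 had a mean log2CPM below 2 in the vehicle libraries of the CCl4 experiment. A gene that low in chow passes the expression threshold only by being high at 12 weeks, so the threshold sets part of the group of large changes. The median level of the induced genes was 9.63 CPM in chow and 52.6 CPM at 12 weeks, and that of the repressed genes 84.2 and 54.7 CPM.

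**Figure D1:**
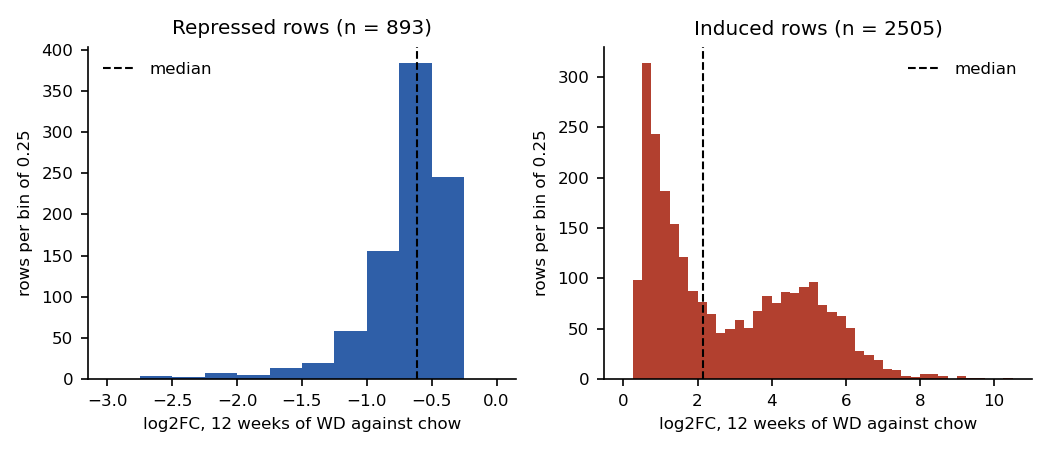
Number of genes per bin of 0.25 of the log2FC at 12 weeks of WD against chow, for the 893 repressed genes (left) and the 2505 induced genes (right), with the median as a dashed line. The repressed genes form a single peak near their median of -0.61, and the induced genes form 2 peaks on either side of their median of 2.13. The expression threshold, which genes low in chow pass only by being high at 12 weeks, sets part of the upper peak.

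The induced genes with the smallest p (5 were named by the rule) were 15.8-fold or more above chow at 12 weeks. Named genes, apart from those of widest span, were chosen for groups that do not overlap, so the lack of overlap is not a result for them. Row 373 was at 8.58, 7.65, 9.58 and 9.15 CPM in chow libraries A to D and at 172, 152, 119 and 107 CPM at 12 weeks. Its log2FC was 3.98 ± 0.24 (SE, FDR 2.56e-07), and library D was the lowest at 12 weeks. Row 15364 had 3, 3, 2 and 0 counts in chow and 731, 583, 550 and 880 counts at 12 weeks (log2FC 8.58 ± 0.52, SE, FDR 2.56e-07). It was thus near the detection limit in each chow library and among the well measured genes in each WD library. Row 23905 was at 19.5, 9.40, 9.58 and 8.05 CPM in chow and at 585, 453, 402 and 335 CPM at 12 weeks. Its log2FC was 5.25 ± 0.33 (SE, FDR 2.68e-07), and chow library A was its only chow library over 10 CPM. Row 18416 rose from a mean of 3.86 ± 1.11 CPM to 160 ± 83.3 CPM (SD, n = 4 each), with 282 CPM in library A and between 95.2 and 133 CPM in the other 3. Row 17479 rose from 9.92 ± 4.02 to 238 ± 56.0 CPM (SD, n = 4 each), and its 12-week libraries fell into a pair at 288 and 285 CPM (A and B) and a pair at 192 and 187 CPM (C and D).

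The repressed genes with the smallest p kept a measurable level at 12 weeks. Row 22734 was at 158, 145, 164 and 168 CPM in chow and at 67.7, 76.4, 93.5 and 96.6 CPM at 12 weeks (log2FC -0.93 ± 0.13, SE, FDR 5.47e-05). Row 13600 was at 74.7, 70.9, 72.5 and 77.6 CPM in chow and at 34.1, 35.1, 38.4 and 39.4 CPM at 12 weeks (log2FC -1.01 ± 0.15, SE, FDR 9.84e-05). In row 13600 the 4 libraries of each group lay close together. The 12-week libraries of row 22734 rose from A to D and spanned 0.51 in log2CPM, near the median of 0.56 for repressed genes. Row 6083 fell furthest of the named repressed genes, from 20.4, 19.9, 17.6 and 18.7 CPM to 1.07, 2.63, 5.58 and 3.74 CPM (log2FC -2.52 ± 0.41, SE, FDR 0.000199). Its 12-week libraries were uneven, with library A the lowest and C the highest. Row 4829 fell from a mean of 13.6 ± 2.26 to 4.43 ± 0.54 CPM (SD, n = 4 each), and row 20446 from 296 ± 32.1 to 145 ± 35.3 CPM.

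The genes nearest the median of each direction show a typical change. Row 1605, at the median of the induced genes, was at 29.9, 24.8, 30.3 and 26.7 CPM in chow and at 220, 104, 86.6 and 81.2 CPM at 12 weeks, with library A far above the other 3. Row 20429, also at that median, was low, at 1.04 to 2.71 CPM in chow and 3.09 to 19.8 CPM at 12 weeks, again with library A as the highest. Row 21388, at the median of the repressed genes, was at 234, 232, 200 and 250 CPM in chow and at 146, 120, 162 and 171 CPM at 12 weeks (log2FC -0.61 ± 0.17, SE, FDR 0.0138). Row 19449, at the same median, went from 45.8 to 54.2 CPM in chow to 21.2, 27.2, 36.5 and 45.2 CPM at 12 weeks. Its FDR was 0.0424, and rose to 0.121 without 12-week A, 0.0956 without 12-week B, 0.0501 without 12-week C, and 0.0756, 0.0909 and 0.104 without chow A, B and D.

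**Figure D2:**
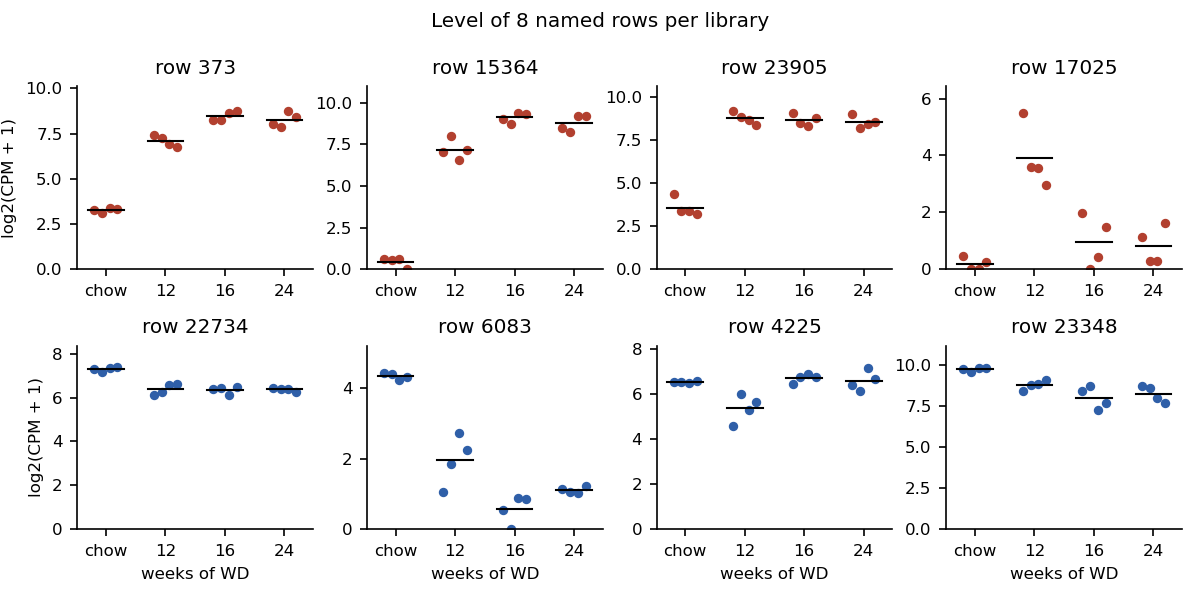
Level of 8 named genes on the log2(CPM + 1) scale against weeks of WD, with 4 libraries per group as points and their mean as a bar. Rows 373 and 15364 were higher still at 16 and 24 weeks, row 23905 stayed near its 12-week level, row 17025 fell back. The repressed row 22734 stayed below chow, and row 4225 was not called different from chow at 16 and 24 weeks.

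The share of genes called depended on their starting abundance. To keep the starting level apart from the test, genes were placed in classes by their mean log2CPM in the 4 vehicle libraries of the CCl4 experiment, which were not used in the diet test and whose levels ranked genes as chow did (Spearman's rho 0.98 across 13510 genes, a description). The share induced was 29.6% of genes with a vehicle log2CPM between 2 and 4, 15.5% between 4 and 6, 9.32% between 6 and 8 and 2.02% above 8. The share repressed went the other way, from 2.78% between 2 and 4 to 6.59% between 4 and 6 and 12.1% between 6 and 8, with 8.34% above 8. Over all genes of these classes, called or not, the median log2FC also fell, from 0.20 to 0.01, -0.12 and -0.36. Below 2, 88.9% of 940 genes were induced, but a further 1124 genes of that class did not reach the mean expression threshold, which a gene low in chow can pass only by being high at 12 weeks. Thus 836 of 2064 genes of the lowest class were induced.

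The size of the change followed the same order among induced genes. Their median log2FC was 4.78 below a vehicle log2CPM of 2, 2.46 between 2 and 4, 1.08 between 4 and 6, 0.74 between 6 and 8 and 0.68 above 8. For repressed genes it was -1.13 between 2 and 4, -0.66 between 4 and 6, -0.55 between 6 and 8 and -0.65 above 8. A low gene needs a large change to be called, since the median SE was 0.61 in the lowest class and 0.17 between 6 and 8. Above 8 the median SE was 0.26. In the lowest class the expression threshold also admits mainly genes that are high at 12 weeks, so the large median there is set in part by the threshold. The median vehicle log2CPM was 3.45 for induced genes, 6.37 for repressed genes and 5.22 for all genes tested. These are read abundances, not corrected for gene length. No more than 3 reads were kept per position, which can hold down the counts of abundant genes. Its part in these shares and sizes was not tested.

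**Figure D3:**
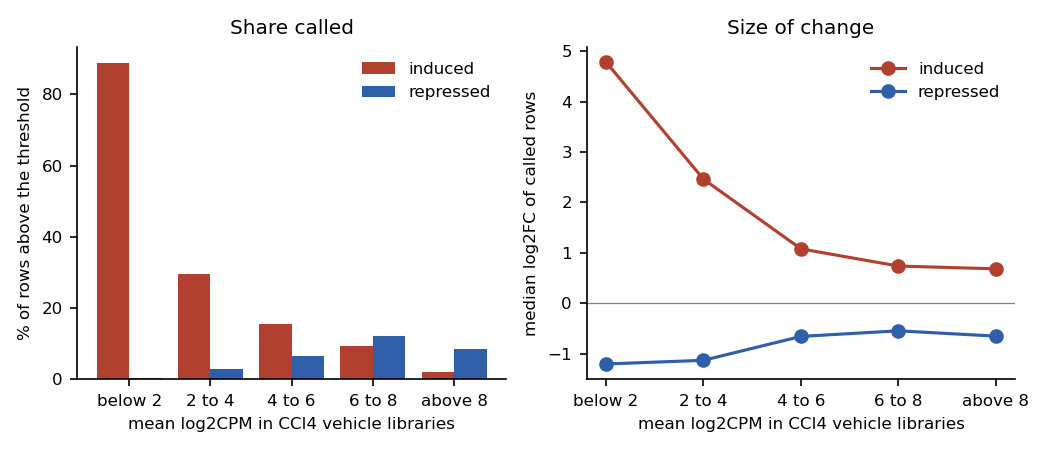
Share of genes over the expression threshold that were induced or repressed at 12 weeks (left, %) and their median log2FC (right), by class of mean log2CPM in the CCl4 vehicle libraries. Induction falls from 88.9% in the lowest class, where the threshold itself favours high 12-week values, to 2.02% in the highest, and repression is most frequent (12.1%) between 6 and 8.

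Among the most abundant genes, subject to the limit on reads per position, the changes were small and several calls were fragile. The 3 induced genes with the highest chow levels were rows 1849, 9264 and 10553. Row 9264 was at 548, 431, 543 and 535 CPM in chow and at 1730, 1760, 1040 and 888 CPM at 12 weeks (log2FC 1.40 ± 0.23, SE, FDR 0.000238). Row 1849 was at 444 to 618 CPM in chow and at 1210, 1500, 825 and 769 CPM at 12 weeks (log2FC 1.00 ± 0.21, SE, FDR 0.00208). In both genes libraries A and B were above C and D. Row 10553 was at 459, 471, 523 and 468 CPM in chow and at 662, 1140, 639 and 684 CPM at 12 weeks, with library B far above the rest. Its FDR of 0.0362 became 0.143 without 12-week library B, and 0.0955, 0.0908, 0.0559 and 0.094 without chow A, B, C and D. The 3 most abundant repressed genes behaved alike in this respect. Row 23728 went from a mean of 1078 ± 91.6 to 741 ± 87.1 CPM (SD, n = 4 each, FDR 0.0498) and passed the threshold in none of the 8 fits without a chow or 12-week library (FDR 0.0515 to 0.13). Row 12932 went from 892 ± 67.5 to 618 ± 76.5 CPM (FDR 0.0383), and missed the threshold without chow A, B or D or 12-week A, B or C (FDR 0.0569 to 0.102). Row 23348 went from 837 ± 68.5 to 440 ± 82.5 CPM (FDR 0.0276), and missed it without chow A, C or D or 12-week A, B or C (FDR 0.0502 to 0.0847).

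Some genes were detected at 12 weeks and at the detection limit in chow. The detection limit was set at 3 counts (the floor). This equalled 0.486 to 0.766 CPM in chow and covers counting error only. Among the induced genes, 117 (4.67%) had at most 3 counts in every chow library, and 116 of these had more than 3 in every 12-week library, with a median of 11.8 CPM. Such a gene reaches the mean expression threshold only by being high at 12 weeks, so the filter fixes most of this pattern. Genes at or under the floor in each chow library numbered 515 among those tested and 10073 among those listed. Of the 117, 68 were also at or under the floor in each vehicle library of the CCl4 experiment. Over all 23999 genes listed, 337 were over the floor in each 12-week library and at or under it in each chow library, against 10 genes with the opposite pattern. Row 4320 had 0 counts in each chow library and 447, 27, 111 and 72 counts at 12 weeks, at least 51.9-fold higher than the floor of 3 counts per library (FDR 0.000126). Its 12-week libraries were uneven, with 79.8 CPM in A and between 11.7 and 18.8 CPM in the other 3. Row 1101 had 0 counts in each chow library and a steadier 16.1, 15.4, 17.2 and 25.9 CPM at 12 weeks, at least 31.7-fold higher (FDR 4.73e-05). Row 21110 had 0, 1, 0 and 0 counts in chow and 643, 55, 155 and 128 counts at 12 weeks, with library A again the highest. Setting the 12 induced genes with 0 counts in chow to their bound left the median log2FC of induced genes at 2.13. The number at least 16-fold fell from 803 to 798. With all 117 genes set to their bound, the median was again 2.13 and the number was 772.

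The 12-week libraries also held more detected genes. With each library thinned to 2425443 counts, genes with at least 3 counts numbered 13362 to 13632 at 12 weeks and 12553 to 12713 in chow. The means were 13518 ± 113 and 12628 ± 70.8 (SD, n = 4 each), and the groups did not overlap (exact two-sided permutation p = 0.029, the smallest that 4 against 4 can give). Over the 13510 genes that passed the filter, the median log2(CPM + 1) was 5.31 ± 0.06 at 12 weeks and 5.07 ± 0.03 in chow (SD, n = 4 each, exact permutation p = 0.029), a difference of 0.24. A gene silent in chow passes that filter only by its counts under WD. Over all 23999 genes listed, the difference was 0.89 (exact permutation p = 0.029). The share of counts in the 10 highest genes was 2.15% ± 0.26 and 2.46% ± 0.17, and the groups overlapped (exact permutation p = 0.14).

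The changes were consistent in direction and uneven in size. In 2335 induced genes (93.2%) each 12-week library was above each chow library, and in 800 repressed genes (89.6%) each was below. The call used these same libraries and favours such genes, so these shares are a description. Over all 12133 genes, 22.4% had groups that did not overlap with 12 weeks higher and 18.4% with 12 weeks lower. In 136 further induced genes 3 of the 4 12-week libraries lay above all chow libraries. When the letters were left out in turn, between 97.0% and 99.4% of the genes induced in the other 3 libraries per group had the same sign in the libraries left out, and between 89.6% and 95.6% of the repressed genes. Of all genes, between 49.2% and 50.6% were higher in the left-out 12-week library.

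The size of the response differed between the 12-week libraries. The induced genes held between 5.94% and 6.98% of the counts in chow. At 12 weeks they held 33.4% in library A, 22.1% in B, 18.6% in C and 16.9% in D. The repressed genes held between 9.47% and 10.4% in chow, and 5.19%, 5.68%, 7.09% and 7.51% in libraries A to D. Both directions thus had the same order, with A furthest from chow and D nearest. The median log2 difference from chow was 2.75, 1.92, 1.70 and 1.65 for the induced and -0.81, -0.75, -0.49 and -0.44 for the repressed genes. Library A was the highest of the 4 for 74.2% of induced genes and for 33% of genes not called. The call itself uses these libraries, so these values are a description.

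**Figure D4:**
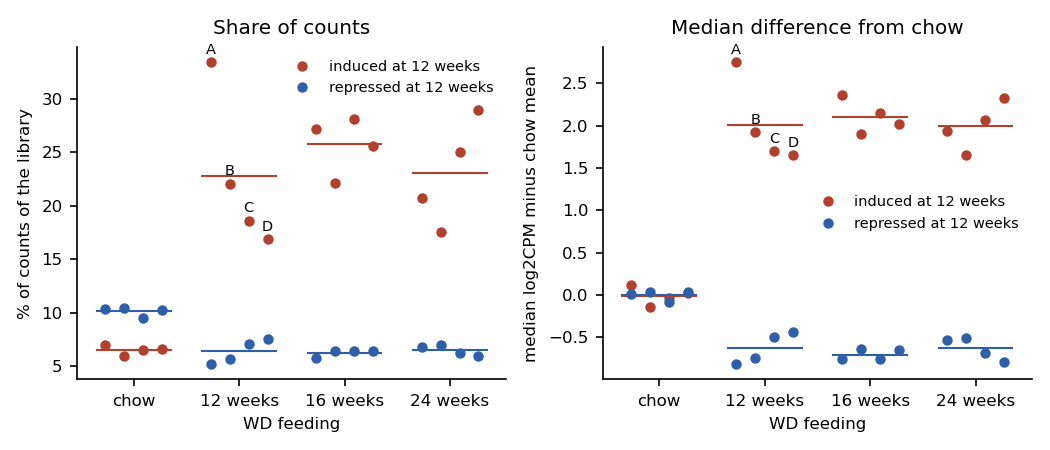
Share of each library's counts held by the genes induced or repressed at 12 weeks (left, %) and median difference of those genes from the chow mean in log2CPM (right), with 4 libraries per group as points and the group mean as a line. At 12 weeks library A lies above B, C and D for induced genes (33.4% against 16.9% to 22.1%), and for repressed genes it lies lowest.

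The spread among the 12-week libraries, library A included, was wider than in chow. The median absolute log2 difference between 2 libraries was 0.495 to 0.525 for 12-week pairs with library A. It was 0.163 to 0.295 for the other 12-week pairs and 0.182 to 0.279 for the chow pairs. The values that follow include library A and were not computed without it. The biological coefficient of variation was 0.164 in chow, 0.317 at 12 weeks, 0.33 at 16 weeks and 0.336 at 24 weeks. Induced genes had a median SD of 0.56 in log2CPM at 12 weeks and 0.34 in chow, and repressed genes 0.26 and 0.14. In 444 induced genes (17.7%) the 12-week libraries spanned more than 4-fold, as they did in 1.67% of genes not called. The chow libraries spanned more than 4-fold in 385 induced genes (15.4%), nearly as many as at 12 weeks. The genes with the widest span were low. Row 14039 had 120, 1, 36 and 17 counts at 12 weeks and 1, 0, 0 and 0 in chow. Row 9957 was at 58.6, 14, 6.09 and 3.25 CPM at 12 weeks, with at most 1 count in any chow library. Row 19027 had 100, 23, 5 and 20 counts at 12 weeks and 0 in each chow library, at least 13.6-fold higher than the floor.

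Most changes of the first 12 weeks were also called later. Of the induced genes, 2025 (80.8%) were induced at both 16 and 24 weeks, 135 at 16 weeks and not 24, 71 at 24 weeks and not 16, and 274 (10.9%) at neither. Of the repressed genes, 662 (74.1%) were repressed at both, 71 and 22 at one of them, and 138 (15.5%) at neither. Among all 12133 genes, 23.3% were induced and 17.5% repressed at both 16 and 24 weeks. In the opposite direction later, edgeR called 0 induced genes (0 at an unadjusted p below 0.05) and 1 repressed gene (2 at 16 weeks at that p). Against chow, 30.3% of genes were induced and 26.8% repressed at 16 weeks, and 26.4% and 18.3% at 24 weeks. The 4 chow libraries serve as control at each time, and their error can add to the shares held.

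Shares from separate controls were lower for repressed genes. With chow A and B for the 12-week test and chow C and D for the later tests, 1593 of 2144 induced genes (74.3%) and 214 of 474 repressed genes (45.1%) were called at both later times, against 17.8% and 7.65% of all genes. With the controls exchanged, these were 1555 of 1927 (80.7%) and 145 of 261 (55.6%), against 20.2% and 11.2%. Without 12-week library A, 1841 of the genes induced at 12 weeks were held (93.8%), and 405 repressed genes (80.7%). The number of repressed genes held was 402 without 12-week B (76.3% of those called). It was 371, 368 and 347 without chow A, B and D (70.4%, 69.6% and 70.2%). The number called thus fell, and the share held stayed near 74.1%.

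Larger changes were held more often. Of induced genes under 2-fold, 64.8% were held, of those between 2- and 4-fold 78.3%, between 4- and 16-fold 91.5%, and over 16-fold 89%. Of repressed genes under 2-fold, 72.3% were held, between 2- and 4-fold 85.4%, and all 13 over 4-fold. Induced genes called at neither later time had a median log2FC of 1.09 at 12 weeks, 0.46 at 16 weeks and 0.45 at 24 weeks. Repressed genes called at neither had medians of -0.57, -0.20 and -0.25.

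The change from 12 weeks onward was tested directly. At 16 weeks, 357 of the 2505 induced genes (14.3%) were higher and 65 (2.59%) were lower than at 12 weeks, and at 24 weeks 299 (11.9%) and 13 (0.519%). Over all genes tested, 9.46% were higher and 3.75% lower at 16 weeks, and 5.8% and 0.403% at 24 weeks. Of the 893 repressed genes, 44 had fallen further and 30 had come back at 16 weeks, and 5 and 10 at 24 weeks. The 12-week libraries enter both this test and the call that chose the genes. Row 373 had a mean of 138 ± 29.8 CPM at 12 weeks (SD, n = 4) and reached 302, 307, 398 and 433 CPM at 16 weeks (log2FC 1.39 against 12 weeks, FDR 0.00153). Row 15364 reached 529, 425, 659 and 652 CPM at 16 weeks from 131, 256, 93.0 and 143 CPM at 12 weeks (log2FC 1.87, FDR 0.00262). Both genes had 16-week libraries all above the 12-week libraries. Rows 23905, 18416 and 17479 did not pass this test at 16 or 24 weeks (FDR 0.342 to 0.821). Row 6083, a repressed gene, was at 0 to 0.833 CPM at 16 weeks (log2FC -2.49 against 12 weeks, FDR 0.00623), but is not among the 44 because its mean level over 12 and 16 weeks was under the expression threshold.

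A few genes returned towards chow. Among genes with groups that did not overlap at 12 weeks, 13 of 2335 induced and 8 of 800 repressed genes moved back at 24 weeks. Of all genes tested, called or not, 0.403% were lower and 5.8% were higher at 24 than at 12 weeks. The share of all 2505 induced genes that moved back (0.519%) was near the share of all genes that were lower. For repressed genes, moving back was less frequent than a rise was among all genes. Row 21392 was at 85.3, 39.5, 33.1 and 37.4 CPM at 12 weeks, at 13.3, 0.869, 0 and 0 CPM at 16 weeks and at 1.42, 3.67, 0 and 1.47 CPM at 24 weeks. Its chow libraries were themselves uneven, with 31, 0, 1 and 17 counts. Row 17025 was at 43.6, 11, 10.7 and 6.83 CPM at 12 weeks and at most 2.97 CPM in any later library (FDR 0.00908 for 16 and 0.00828 for 24 against 12 weeks). Row 16257 had 0 counts in each chow library, 183, 26, 41 and 17 counts at 12 weeks, at least 22.9-fold higher than the floor, and at most 0.735 CPM at 24 weeks (FDR 0.012). In all 3 genes library A was the highest of the 12-week libraries. Row 4225, a repressed gene, was at 88.5 to 94.3 CPM in chow, at 23.2, 64.1, 38.9 and 49.8 CPM at 12 weeks and at 87.6, 109, 117 and 109 CPM at 16 weeks (log2FC 1.28 against 12 weeks, FDR 0.0053). Its level at 16 and 24 weeks was not called different from chow (FDR 0.491 and 0.751). Row 4134 went from 25.8 ± 3.59 in chow to 11.2 ± 3.09 CPM at 12 weeks (SD, n = 4 each) and back to 17 to 29.3 CPM at 24 weeks. Row 19235 went from 32.4 ± 3.89 to 18.7 ± 4.27 CPM and back to 27.0 to 56.2 CPM, and its call at 12 weeks (FDR 0.0193) was lost without chow B (FDR 0.061), 12-week A (FDR 0.0625) or 12-week D (FDR 0.0509).

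The 12-week changes were then set beside CCl4 and IVT, which have their own controls. Of the induced genes, 2034 were tested at 8 weeks of CCl4, and 1038 of these (51%) were induced there, against 20.9% of all genes tested in both. At 1 week of CCl4 the share was 29.4% of 1908, against 14.5%. Of the repressed genes, 609 of 889 (68.5%) were repressed at 8 weeks of CCl4, against 27.8% of all, and 14.5% of 891 at 1 week, against 11.3%. The 1038 genes were 42.8% of the genes induced at 8 weeks of CCl4, and the 609 were 18.9% of those repressed. In IVT, 58.2% of the 1497 induced genes tested were induced at day 1 and 64.9% of 1631 at day 12, against 41.5% and 42.6% of all. Of the repressed genes 52.7% and 59.2% were repressed there, against 39.2% and 39.9%. The opposite direction was called in IVT for 25.7% and 19.9% of the induced genes, against 39.2% and 39.9% of all. For the repressed genes the opposite shares were 25.8% and 24.4%, against 41.5% and 42.6%. Each model had its own cells and libraries, so model and experiment cannot be told apart.

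The later course of the induced genes was then set out by their call in CCl4, a split made after the values had been seen. The 1038 genes also induced at 8 weeks of CCl4 had a median log2FC of 2.00 at 12 weeks, 2.60 at 16 weeks and 2.45 at 24 weeks. The 888 genes tested but not called in CCl4 had medians of 1.23, 1.03 and 0.93, and the 471 genes that did not pass the filter or the expression threshold in CCl4 had medians of 5.15, 4.52 and 4.40. Of the 357 induced genes that were higher at 16 than at 12 weeks, 356 were in the shared class, as were all 299 that were higher at 24 weeks. Among all genes induced in CCl4, called at 12 weeks or not, 35.1% were higher at 16 than at 12 weeks and 24.3% at 24 weeks, close to the 34.3% and 28.8% of the shared class. Of the genes not called in CCl4, these shares were 2.82% and 0.594%. Of the 65 genes lower at 16 weeks, 30 were among the 471 not tested in CCl4. The share held at both later times was 94.2% in the shared class, 74.4% for genes not called, 72.2% for genes not tested and 42.6% for the 108 genes repressed in CCl4.

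The 12-week library A was more often the highest outside the shared class. It was the highest of the 4 for 57.9% of the shared genes, 84.6% of those not called, 93.5% of those repressed and 86% of those not tested in CCl4. The median difference from chow in libraries A to D was 2.44, 1.92, 1.68 and 1.71 for the shared genes and 1.92, 1.11, 0.91 and 0.76 for those not called. Without library A, 365 of 885 shared genes (41.2%) and 5 of 658 not called (0.76%) were higher at 16 weeks, and the shares held were 96.4% and 93.5%. Leaving out library A also changed which genes were called at 12 weeks, and its part in the shares held was not tested. Without libraries A and B, 240 of 673 shared genes (35.7%) were higher at 16 weeks. At 24 weeks 0 of the 673 passed the edgeR test with 2 libraries left at 12 weeks, and 307 had an unadjusted p below 0.05 in that direction.

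**Figure D5:**
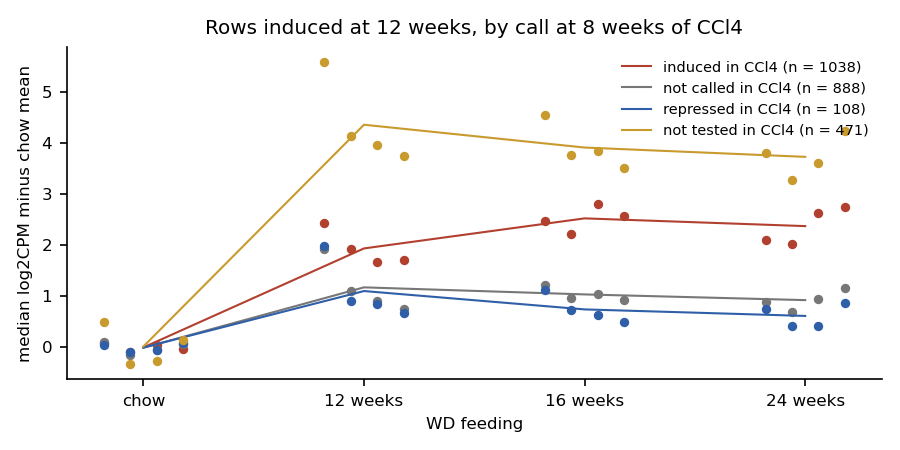
Median difference from the chow mean in log2CPM for genes induced at 12 weeks, split by their call at 8 weeks of CCl4, with 4 libraries per group (A to D from left to right) as points and a line through the group means. Genes induced in CCl4 lie higher at 16 and 24 weeks (medians of the log2FC 2.60 and 2.45) than at 12 weeks (2.00), the other classes do not, and 12-week library A lies above B, C and D in each class.

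Named genes followed the classes in part. Row 373 had a log2FC of 3.98 at 12 weeks of WD, 3.38 at 1 week of CCl4 (FDR 1.69e-06) and 5.69 at 8 weeks of CCl4 (FDR 2.12e-09). Row 15364 had a log2FC of 9.36 at 1 week and 11.45 at 8 weeks of CCl4 (FDR 3.84e-09 and 1.37e-10). Row 23905 rose 38.0-fold at 12 weeks of WD and was not called in CCl4, with log2FC of 0.17 and -0.47 (FDR 0.897 and 0.668). Row 18416 likewise had a log2FC of -0.16 and 0.23 in CCl4 (FDR 0.843 and 0.718). Rows 17479 and 1605 were induced at 8 weeks of CCl4 (log2FC 2.31, FDR 0.00414, and 0.77, FDR 0.00156) and did not pass the test of a further rise in WD. Against 12 weeks, row 17479 had a log2FC of -0.39 at 16 weeks (FDR 0.342) and row 1605 of -0.04 (FDR 0.928). Among repressed genes, row 22734 had a log2FC of -1.06 at 8 weeks of CCl4 (FDR 7.42e-05) and -1.5 at day 12 of IVT (FDR 1.16e-06), beside -0.93 at 12 weeks of WD. Row 21388, at the median of the repressed genes, went the other way in culture, with a log2FC of 1.02 at day 12 (FDR 3.27e-11).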

How the data were processed

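The authors aligned polyA-selected reads to mm10 with STAR, counted exon reads per RefSeq gene with HOMER (either strand, no more than 3 reads kept per position), and deposited raw counts without normalization (tool versions are not given in the sources used here). The header commands of the 3 tables name the same source libraries, so columns were assigned by their titles, and genes by their row, since counts did not follow the identifiers (23659 of 23999 identifiers matched a RefSeq gene). Sequences and functions are therefore not given here. Labels call the libraries biological replicates, and they were taken as different mice. Total counts of the 16 WD libraries ranged from 2425443 to 6404105, and a count of 3 was 0.468 to 1.24 CPM. Reads are not independent molecules, so this floor covers counting error only.

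The fit was made in R 4.3.3 with edgeR 4.0.16 (TMM normalization, filterByExpr, quasi-likelihood test, all 16 WD libraries in one fit, Benjamini-Hochberg FDR). The filter kept 13510 genes. Calls needed an FDR no higher than 0.05 and, averaged across both groups, a log2CPM over 2. CCl4 and IVT were fitted on their own. SE is the log2FC divided by the root of the F statistic and is approximate. Exact permutation tests were used for values per library. Log2CPM values used a prior count of 2 and fitted log2FC a prior count of 0.125. The code of the test was checked on simulated counts in which each gene had the same spread in all groups and no library stood apart. These data differ in both respects, so the check does not cover them. Named genes did not overlap between 12 weeks and chow (except those of widest span) and were the 5 induced and 5 repressed of smallest p, the 3 and 3 of highest chow level, the 3 of largest log2FC with at most 3 counts in each chow library, the 3 and 3 with the largest change back at 24 weeks, the 2 and 2 nearest the median, and the 3 induced of widest span. The comparison, gene rule and classes were chosen with earlier results of these data known. The deviations of same-letter libraries of chow and 12 weeks had r = 0.31, -0.09, 0.02 and -0.11 for A to D. The value for A was the highest of all pairs of a chow and a 12-week library, and the others ran from -0.27 to 0.27. Letters B to D did not deviate together, so letters were not taken as pairs. Alternatives were DESeq2 1.42.0, edgeR's exact test, other scalings, filters and thresholds, thinning, separate controls, a letter block and leaving out libraries. Python 3.11.15 and matplotlib 3.10.9 drew the figures.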

Additional observations from a re-analysis of the deposited data

Results flagged for a closer look

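Single libraries lay far from the others of their group by Dixon's criterion, which chance alone meets in about 1 in 20 groups of 4. The total of 12-week library B was 2425443 counts. The 117 induced genes at or under the floor in chow took 0.305% of the counts of 12-week library A. Library A was also far from the other 3 in row 4320 (79.8 CPM), row 21110 (115 CPM), row 21392 (85.3 CPM), row 17025 (43.6 CPM) and row 1605 (220 CPM), and 12-week library B in row 10553 (1140 CPM). In chow, such libraries were D in row 15364 (0 CPM), A in row 23905 (19.5 CPM), B in row 9264 (431 CPM), B in row 21110 (0.159 CPM, 1 count) and A in row 14039 (0.183 CPM, 1 count). Rows 15364, 21110 and 14039 had at most 3 counts in any chow library. A few counts meet the criterion there, so the rate of 1 in 20 does not hold for them.

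The effect at 12 weeks differed from that at a later time by the edgeR test of the difference. Of the induced genes, 357 were higher and 65 lower at 16 weeks, and 299 higher and 13 lower at 24 weeks. Of the repressed genes, 44 were lower and 30 higher at 16 weeks, and 5 lower and 10 higher at 24 weeks. Among named genes the log2FC at 16 and 24 weeks against 12 weeks was 1.39 and 1.2 for row 373, 1.87 and 1.56 for row 15364, and 1.07 and 0.90 for row 10553. It was -3.82 and -4.89 for row 21392, -2.92 and -4.75 for row 16257, and -3.79 and -4.19 for row 17025. For the repressed genes it was 1.28 and 1.17 for row 4225, 1.40 and 1.05 for row 4134, 0.86 and 1.03 for row 19235, and 0.66 at 16 weeks for row 21388.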

How the results depend on the processing

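The count of induced genes stayed within 1.5 times of 2505 in each alternative (1806 to 2952, and 1963 to 2560 when single libraries were left out) except without 12-week A and B together (1543), an alternative chosen after seeing the data. The count of repressed genes, 893 as reported, was 1440 with DESeq2, 1667 with only the compared groups in the fit, 109 at 2-fold, 118 without both libraries, and 494 to 933 when single libraries were left out. Of the repressed genes held (662), there were 437 without the filter on low counts, 1075 with DESeq2, 1226 with only the compared groups, 82 at 2-fold, 106 without both libraries, 214 and 145 with separate controls, and 347 to 770 when single libraries were left out. The induced genes held were 1375 to 2535 in all alternatives. The 12-week calls that differed at 16 weeks (496) were 754 with DESeq2 and 263 with a mean log2CPM above 4, and those that differed at 24 weeks (327) were 139 with that threshold. The median log2FC measured in a letter left out of the call was 2.07 to 3.3 for induced and -0.86 to -0.35 for repressed genes. Detected genes differed by 784.5 without thinning (exact permutation p = 0.057). With classes from chow itself, 92.8% of the lowest class was induced. At 2-fold in both experiments, 650 induced genes were shared at 8 weeks of CCl4 (47.1% of those tested, against 11.5% of all). In IVT, 278 were shared at day 1 (32.9% against 17.2%) and 476 at day 12 (48.6% against 19.9%). The repressed genes shared were 24 and 72 at 1 and 8 weeks of CCl4 (22.4% against 2.25%, and 67.3% against 11.1%). In IVT they were 47 at day 1 and 48 at day 12 (49% and 50.5%, against 19.3% at each). The causes were not tested, except that a 2-fold limit admits fewer genes by its construction. With the letter as a replicate block, which the pairing check did not call for, 2449 genes were induced and 831 repressed, 2023 and 569 were held, and 585 and 398 differed at 16 and 24 weeks. For the 32 named genes, 466 of 510 values under an alternative were past the threshold in the same direction as reported, 44 were not past it and 0 were reversed. Depth limits low genes most, since a library of 2425443 counts cannot resolve levels under 1.24 CPM.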
